A study of Mus musculus with 18 samples.

Results

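The small leucine-rich proteoglycans are a family of secreted proteins of the extracellular matrix, and 7 of them were followed here in mouse hepatoma cells: Ogn (osteoglycin, or mimecan), Dcn (decorin), Lum (lumican), Bgn (biglycan), Fmod (fibromodulin), Aspn (asporin) and Omd (osteomodulin). Ogn was chosen because its signal rose with the dioxin TCDD in these same arrays, and the others as its relatives, to ask whether they follow it. All 7 were measured, by the 17 probe sets that carry their symbol alone, of 18193 genes and 45037 probe sets in all.

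Total RNA came from wild-type Hepa-1c1c7 cells, a line from a liver tumor of a male C57BL/6 mouse, and from c35 cells, a derivative whose aryl hydrocarbon receptor (AHR) cannot bind DNA. Each line received DMSO alone (naive cells), TCDD or benzo[a]pyrene (BaP) at 5 µM, both dissolved in DMSO, and was harvested after 8 hr, with 3 arrays from 3 biological replicates in each of the 6 groups. The TCDD dose was 5 nM in the labels of the c35 arrays and in the study's methods, whereas the labels of the wild-type TCDD arrays give none. All cells grew in medium with fetal bovine serum, and c35 is a single derived line, so that its receptor mutation and its other differences from the wild-type line cannot be told apart. The values are log2 signals, on which a difference of 1 is a doubling. They compare groups within a probe set, because the brightness of different probe sets is not on a common scale.

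The core protein of these proteoglycans is a curved stack of leucine-rich repeats that binds collagen fibrils and sets their diameter and spacing, and most members also carry chains of chondroitin, dermatan or keratan sulfate. Several bind growth factors or their receptors: decorin holds transforming growth factor beta and binds the receptors Egfr and Met, and biglycan can signal through the Toll-like receptors Tlr2 and Tlr4. In liver they are known chiefly as products of stellate cells and fibroblasts. The AHR is a transcription factor activated by ligands such as TCDD and BaP, and with its partner ARNT it binds DNA at the core letters GCGTG.

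The genes lie in clusters. In the order of protein-coding genes of the RefSeq annotation (GRCm38.p6), Ecm2, Aspn, Omd and Ogn followed each other on chromosome 13, Dcn, Lum, Kera and Epyc on chromosome 10, and Optc, Prelp and Fmod on chromosome 1, while Bgn stood on chromosome X with no relative beside it. RefSeq promoter windows, of 250 bases before to 50 bases after a gene's start, were at hand for 5 of the 7 genes, all but Dcn and Lum. The letters GCGTG were searched on both strands (CACGC on the other) because they are the core the AHR binds. They occurred in the window of Bgn and not in those of Ogn, Fmod, Aspn or Omd, and 32.4% of all 32851 windows held them. The longer TNGCGTG, which contains the core, was in none of the 5 windows and in 5.07% of all. The windows of Ogn, the gene chosen for its rise with TCDD, and of Bgn, the window with a match, are shown 5′ to 3′ on the plus strand, in lower case with GCGTG in capitals. The Ogn window is chr13:49607765-49608064 and the Bgn window is chrX:73483351-73483650, in which the match begins at base -199 from the start.
Ogn: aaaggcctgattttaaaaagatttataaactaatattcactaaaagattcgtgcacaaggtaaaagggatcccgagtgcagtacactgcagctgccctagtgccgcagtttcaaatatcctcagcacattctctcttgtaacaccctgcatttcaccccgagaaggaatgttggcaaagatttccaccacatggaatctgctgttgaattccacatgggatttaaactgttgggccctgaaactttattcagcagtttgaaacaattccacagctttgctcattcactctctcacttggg
Bgn: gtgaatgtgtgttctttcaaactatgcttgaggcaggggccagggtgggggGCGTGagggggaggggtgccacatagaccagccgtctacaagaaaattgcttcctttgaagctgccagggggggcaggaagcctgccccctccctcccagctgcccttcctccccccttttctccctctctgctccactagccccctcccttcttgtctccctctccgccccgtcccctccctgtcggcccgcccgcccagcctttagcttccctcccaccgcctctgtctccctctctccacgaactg
A match is a description of the letters alone. Binding of the receptor to these windows was not analysed here.

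Pearson's r over probe sets was 0.991 to 0.997 between wild-type arrays, 0.995 to 0.998 between c35 arrays and 0.969 to 0.980 across the lines. The treatment check held in wild-type cells, where 6 of 7 genes of the AHR battery were called higher with each ligand, among them Tiparp, a poly(ADP-ribose) polymerase, by 2.44 with TCDD and 2.61 with BaP (log2), and 0 of 7 were called in c35 cells. Of the hepatocyte markers, Alb had group means from 11.1 to 13.6 and Afp from 11.9 to 12.3, but Fgb and Apob stayed below 5.88, the highest mean among 44 olfactory receptor probe sets, which served as a rough guide to background. Of the 14 fibroblast and stellate cell markers, most were within that background range in every group: Pdgfra, Thy1, Lrat, Reln, Fap, Pdpn, Postn and Lox. Col3a1, Col1a1 and Pdgfrb were bright, Acta2 and Des were above the range, and Col1a2 stood at its upper edge. The 3′ minus 5′ difference of the actin control probe sets (Actb), a sign of RNA quality and labelling, was 0.73 to 1.38 on wild-type arrays and 0.30 to 0.53 on c35 arrays, with the top value on wild-type DMSO replicate 1. Its part in the line differences was tested only as a covariate, as given with Dcn and Bgn. Because its values did not overlap between the lines, the covariate and the line cannot be cleanly separated. A line call lost after this adjustment therefore does not tell which of them it depends on.

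Ogn rose in wild-type cells with both ligands and stayed dim in c35 cells. On probe set 1419662_at the 3 wild-type DMSO arrays read 5.55, 6.01 and 6.36, the TCDD arrays 6.96, 7.65 and 7.33, and the BaP arrays 7.13, 7.29 and 7.32. Every array with a ligand was above every DMSO array. On the other probe set, 1419663_at, the DMSO arrays read 6.97, 6.71 and 6.80, the TCDD arrays 8.09, 7.67 and 7.70, and the BaP arrays 7.91, 7.92 and 8.00, again with no overlap between DMSO and either ligand. The mean difference from DMSO was 1.34 and 0.99 (log2) with TCDD, or 2.53-fold and 1.99-fold, which placed these probe sets 14th and 30th among 45037 by size of rise. With BaP it was 1.27 and 1.12, or 2.42-fold and 2.17-fold. Groups without overlap were found for 15.6% of all probe sets with TCDD and 20.1% with BaP. These wild-type values chose the gene or share the DMSO or TCDD arrays with those that did, and they are given as a description with no test.

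The ligands left Ogn at nearly the same level. The TCDD mean of 7.31 ± 0.35 (SD, n = 3) on 1419662_at stood beside a BaP mean of 7.25 ± 0.10, and on 1419663_at the means were 7.82 ± 0.23 and 7.94 ± 0.05. As a description, the pair of probe sets correlated at r = 0.957 over all 18 arrays, 0.814 over the 9 wild-type arrays and -0.364 over the 9 c35 arrays. The TCDD and BaP arrays overlapped on 1419662_at, and on 1419663_at TCDD replicate 1 was above all BaP arrays and the other TCDD arrays below them.

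In c35 cells, whose arrays did not choose the gene, Ogn read at most 4.64 on 1419662_at (median 4.45) and 2.87 to 3.63 on 1419663_at over all 9 arrays, inside the range of the olfactory receptor probe sets (2.16 to 5.88). On 1419662_at the differences from DMSO were 0.13 with TCDD (95% interval -0.27 to 0.52) and -0.06 with BaP (-0.45 to 0.34). On 1419663_at they were -0.46 with TCDD (-0.71 to -0.22) and -0.32 with BaP (-0.57 to -0.08), with every ligand array below every DMSO array. Groups without overlap, in either direction, were found for 11.5% of all probe sets with TCDD and 9.69% with BaP in this line. Both ligands share the same DMSO arrays. Neither probe set was called: limma's adjusted p values for TCDD were 0.974 on 1419662_at and 0.962 on 1419663_at, and for BaP they were 1 on both, while the unadjusted p on 1419663_at was 0.000889 with TCDD. No gene at all was called for either ligand in c35 cells (0% of 18193 genes for TCDD and 0% for BaP at an adjusted p below 0.1), although 2244 and 1827 probe sets had an unadjusted p below 0.05. The response in wild-type minus that in c35 was 1.21 and 1.46 for TCDD and 1.33 and 1.44 for BaP, values that again rest on the arrays that chose the gene.

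**Figure D1:**
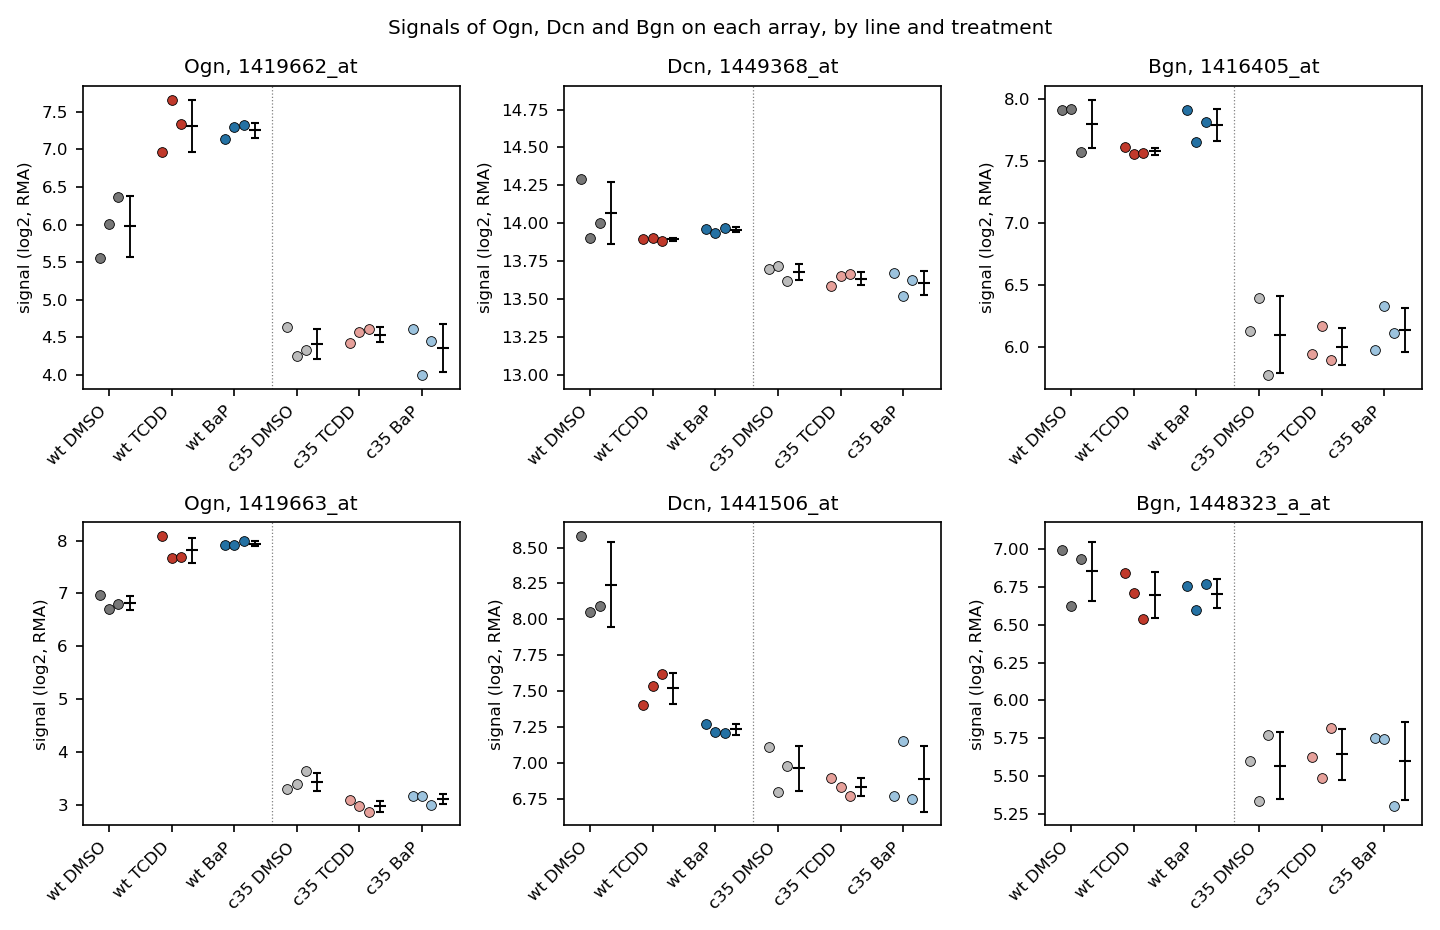
Log2 signals of both Ogn probe sets, both Dcn probe sets and 2 of the 3 Bgn probe sets on each of the 18 arrays, by line (wt is wild-type) and treatment. Points are arrays, the mark beside them is the group mean with 1 SD (n = 3), and each panel has its own vertical scale. Ogn was higher with either ligand in wild-type cells and dim in all c35 groups, Dcn was called lower with the ligands on 1441506_at and not called on 1449368_at, and Bgn differed between the lines.

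None of the relatives was called higher with either ligand. With TCDD in wild-type cells 2 of the 7 genes were called, Ogn higher and Dcn lower, against 0.489% of all genes (73 higher and 16 lower), and the Ogn call is the one that chose it. With BaP the same 2 were called in the same directions, against 1.76% of all genes. The median difference of the 7 genes, each by its probe set of highest mean, was -0.04 with TCDD and 0.02 with BaP, beside 0.01 and 0.00 over all genes. Of the 15 probe sets of the relatives, 14 were not called with either ligand, and the 95% intervals of all 14 lay within 1.5-fold of no change. The widest limits were -0.51 and 0.56 (log2) with TCDD and -0.51 and 0.40 with BaP. Both ligands were compared with the same 3 DMSO arrays, so their results are not independent of each other.

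**Figure D2:**
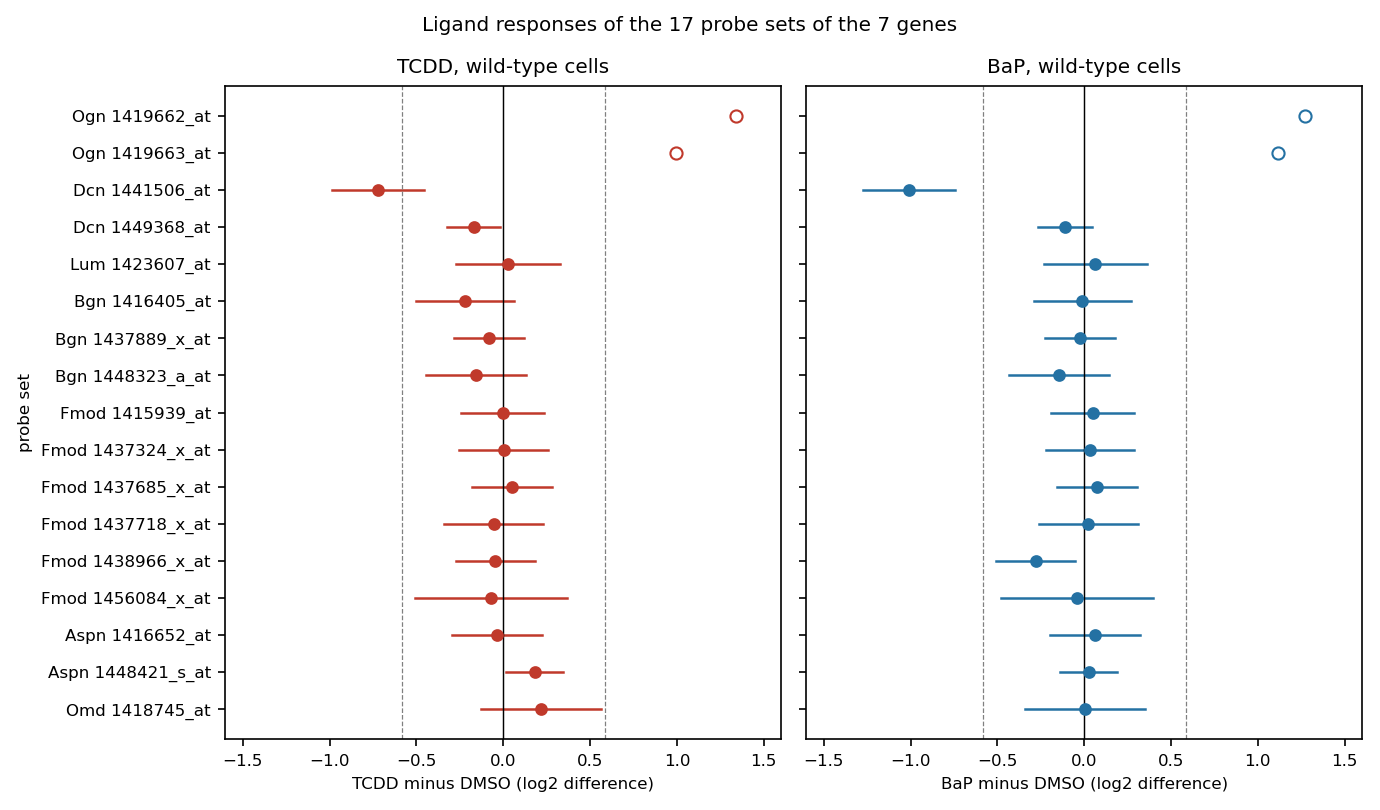
Log2 difference from DMSO in wild-type cells with TCDD (left) and BaP (right) for each of the 17 probe sets. Filled points have their 95% interval from limma, the open Ogn points have none because these arrays chose the gene, and dashed lines mark 1.5-fold. Of the relatives, only Dcn 1441506_at, at -0.72 and -1.01, lay beyond a dashed line.

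Dcn moved the other way, on 1 of its 2 probe sets. On 1441506_at the wild-type DMSO arrays read 8.58, 8.05 and 8.09, the TCDD arrays 7.40, 7.53 and 7.62, and the BaP arrays 7.27, 7.22 and 7.21. The 3 groups did not overlap, with DMSO highest and BaP lowest. Of all probe sets, 15.6% had no overlap between TCDD and DMSO, 20.1% between BaP and DMSO, and 21.2% between TCDD and BaP. The signal fell by 0.72 with TCDD (SE 0.13, adjusted p = 0.00572 by limma over all probe sets) and by 1.01 with BaP (SE 0.13, adjusted p = 4.13e-05). TCDD stood 0.29 above BaP (95% interval 0.02 to 0.55), which did not pass the adjustment (adjusted p = 0.313), nor did any other member in that comparison, in which 0.379% of all genes were called.

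Wild-type DMSO replicate 1, which also had the highest Actb 3′ minus 5′ difference, was the highest Dcn array on both probe sets. Without it the fall on 1441506_at was 0.55 with TCDD (adjusted p = 0.027, under the 1.5-fold minimum, so the call was lost) and 0.84 with BaP (adjusted p = 9.94e-05, still called). Adjusting for the Actb value left both calls in place, with a fall of 0.71 with TCDD. When only the arrays of the groups compared entered the fit, the TCDD call was lost (adjusted p = 0.139) and the BaP call held (adjusted p = 0.00758).

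The other Dcn probe set, 1449368_at, was very bright. Its 3 wild-type DMSO arrays read 14.30, 13.91 and 14.00, the TCDD arrays 13.90, 13.91 and 13.88, and the BaP arrays 13.96, 13.94 and 13.97, where the highest value of any probe set on any array was 14.97. The differences were -0.17 with TCDD (95% interval -0.33 to -0.02, adjusted p = 0.339) and -0.11 with BaP (-0.26 to 0.04, adjusted p = 0.513), and neither was called. Without wild-type DMSO replicate 1 they were -0.06 and 0.00. Over all wild-type arrays both probe sets thus had lower means with either ligand, and only 1441506_at was called. As a description, they correlated at r = 0.691 over the 9 wild-type arrays. The place of each within the transcript was not used here, and the effect of a signal near the top of the scale was not tested.

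In c35 cells Dcn 1441506_at read 6.75 to 7.15 over all 9 arrays, and the differences from DMSO were -0.13 with TCDD (95% interval -0.39 to 0.13) and -0.07 with BaP (-0.34 to 0.19). The BaP response differed between the lines by -0.94 (SE 0.18, adjusted p = 0.00664), where 1.72% of all genes were called. The TCDD response differed by -0.59 (SE 0.18), which did not pass the adjustment (adjusted p = 0.344), where 0.335% of all genes were called. On 1449368_at these differences between lines were -0.04 for BaP and -0.13 for TCDD, not called.

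Bgn was not called with either ligand and differed between the lines. On 1416405_at the wild-type arrays read 7.91, 7.92 and 7.58 with DMSO, 7.61, 7.56 and 7.57 with TCDD, and 7.91, 7.65 and 7.81 with BaP. The 9 c35 arrays read 5.77 to 6.39, with a median of 6.11, all below the lowest wild-type array. With ligand the wild-type differences were -0.22 for TCDD (95% interval -0.50 to 0.06) and -0.01 for BaP (-0.29 to 0.27), and the other 2 probe sets, 1437889_x_at and 1448323_a_at, had differences between -0.16 and -0.03.

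Between the lines Bgn was higher in wild-type cells on all 3 probe sets under every treatment. In naive cells the difference on 1416405_at was 1.70 (SE 0.13, 3.25-fold, adjusted p = 2.82e-09), and it was 1.58 with TCDD and 1.65 with BaP. It was 1.28, 1.05 and 1.11 in the same order on 1448323_a_at. On 1437889_x_at it was 0.73, 0.72 and 0.61, and these calls were lost after adjustment for the Actb value, where they were 0.56, 0.53 and 0.44. The suffix _x_at marks probe sets that may also bind other transcripts.

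The line difference took in 3 of the 7 genes in naive cells, Ogn, Dcn and Bgn, all higher in wild-type, where 21.3% of all genes were called. With TCDD the same 3 were called, again with Ogn as a description, against 22.5% of all genes. With BaP it was Ogn and Bgn, against 23.3%. The BaP arrays did not choose Ogn, and between them Ogn was higher in wild-type cells by 2.89 on 1419662_at (SE 0.19, 7.43-fold, adjusted p = 1.58e-10) and by 4.83 on 1419663_at (SE 0.12, 28.5-fold, adjusted p = 4.21e-17). Since the c35 signals of Ogn lay in the background range, both folds depend on the background of the probe set. In naive cells Ogn stood 1.56 and 3.39 higher in wild-type, as a description.

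For Dcn the line difference shrank with the ligands on 1441506_at. It was 1.28 in naive cells (SE 0.13, adjusted p = 6.83e-08), 0.69 with TCDD (adjusted p = 0.000161) and 0.34 with BaP (adjusted p = 0.0386, below the 1.5-fold minimum). After adjustment for the Actb value these were 0.97, 0.37 and 0.04, and the call with TCDD was lost (adjusted p = 0.184). On 1449368_at it was 0.39, 0.26 and 0.35, each with an adjusted p of at most 0.0076 and below 1.5-fold. After adjustment for the Actb value it was 0.20, 0.07 and 0.17 (adjusted p = 0.174, 0.744 and 0.26 by limma). On this probe set the wild-type and c35 arrays did not overlap under any treatment, as held for 43.8% (DMSO), 46.1% (TCDD) and 46% (BaP) of all probe sets.

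Lum, Fmod, Aspn and Omd were dim throughout. Lum, which regulates collagen fibrils in cornea and skin, read 3.15 to 3.76 on all 18 arrays. Omd, a keratan sulfate proteoglycan of bone, read 4.20 to 4.93. Aspn, which carries a run of aspartate residues in place of sugar chains, read 2.01 to 3.00 on its 2 probe sets, and Fmod, a keratan sulfate proteoglycan of tendon and cartilage, read 2.19 to 5.61 on its 6. All 10 probe sets were below 5.88, the top of the olfactory receptor range, and none was called in any of the 10 comparisons. Without detection calls in the table, expression at a low level cannot be told apart from background.

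Omd and Aspn lie beside Ogn on chromosome 13. Omd read 4.59, 4.22 and 4.63 on the wild-type DMSO arrays and 4.90, 4.73 and 4.46 on the TCDD arrays, which overlapped, and its difference was 0.22 (95% interval -0.13 to 0.56, adjusted p = 0.648). With BaP it was 0.01 (-0.34 to 0.35). Aspn differed by -0.04 and 0.18 with TCDD and by 0.06 and 0.03 with BaP, and on 1448421_s_at the TCDD arrays, at 2.19 to 2.34, were all above the DMSO arrays, at 2.06 to 2.16, with an adjusted p of 0.344. With TCDD 3 of the relatives' 15 probe sets had groups that did not overlap, where 15.6% of all probe sets had. Ecm2, a further leucine-rich repeat protein in this cluster, was not called in any comparison.

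**Figure D3:**
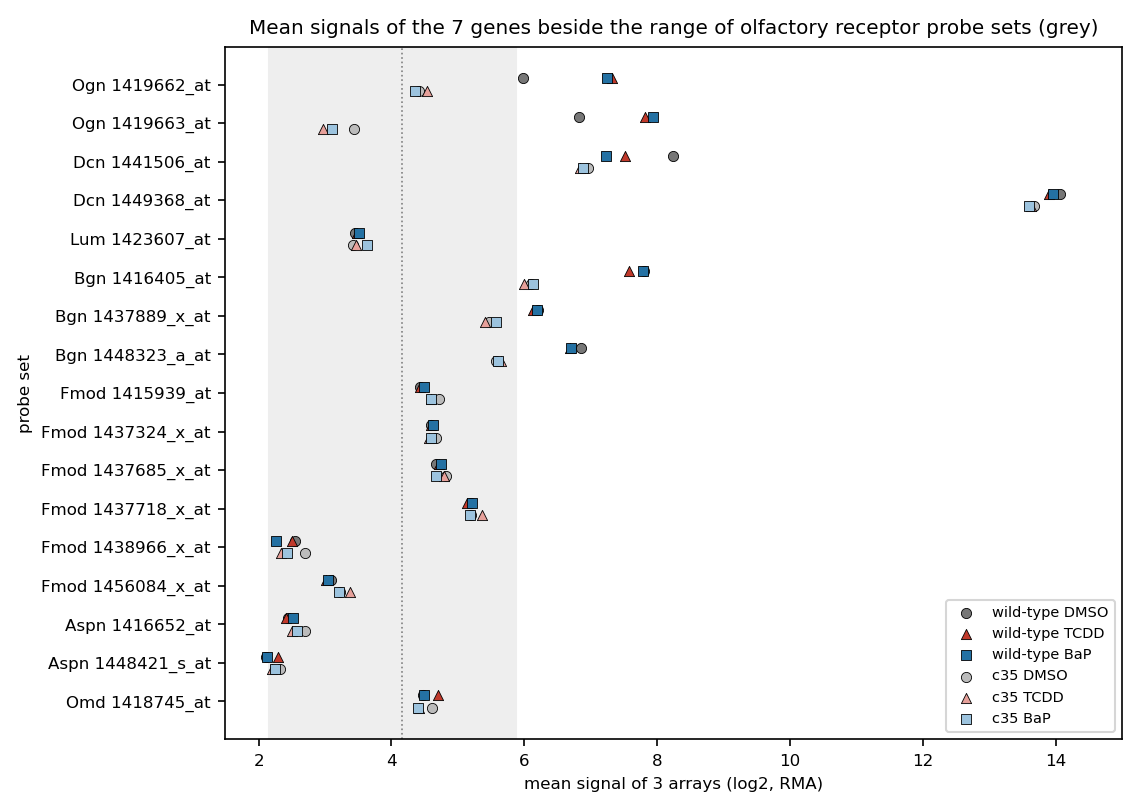
Mean log2 signal of 3 arrays for each of the 17 probe sets, by line and treatment. The grey band spans the means of the 44 olfactory receptor probe sets (2.16 to 5.88) with their median of 4.15 as a dotted line. Lum, Fmod, Aspn and Omd sat in or at the edge of the band in every group, Ogn was above it in wild-type cells only, and both Dcn probe sets were above it in every group.

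Of 10 other members of the family, 8 were measured, by 10 probe sets. None was called with either ligand in either line. Prelp, which binds basement membranes to collagen and lies beside Fmod, was the only one called between the lines. On 1416321_s_at its 9 wild-type arrays read 3.83 to 4.70 and its 9 c35 arrays 10.25 to 10.63. In naive cells wild-type was lower by 6.39 on the log2 scale (SE 0.16, adjusted p = 1.15e-16), the largest deficit of all 45037 probe sets, and by 4.12 on 1416322_at (SE 0.19, adjusted p = 7.39e-13). The wild-type signal was in the background range, so the fold depends on the background there. Prelp thus differed between the lines in the direction opposite to Ogn and Bgn, and like Bgn it did not pass the test for any ligand comparison. Kera, Epyc, Optc, Chad, Nyx, Podn and Ecm2 were not called between the lines, with differences of -0.23 to 0.22 in BaP-treated cells. In naive cells they ran from -0.31 (Chad, adjusted p = 0.0282 by limma) to 0.30 (Ecm2). With TCDD they ran from -0.23 (Podn, adjusted p = 0.0436 by limma) to 0.23 (Nyx). These differences of Chad and Podn were below the 1.5-fold minimum.

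**Figure D4:**
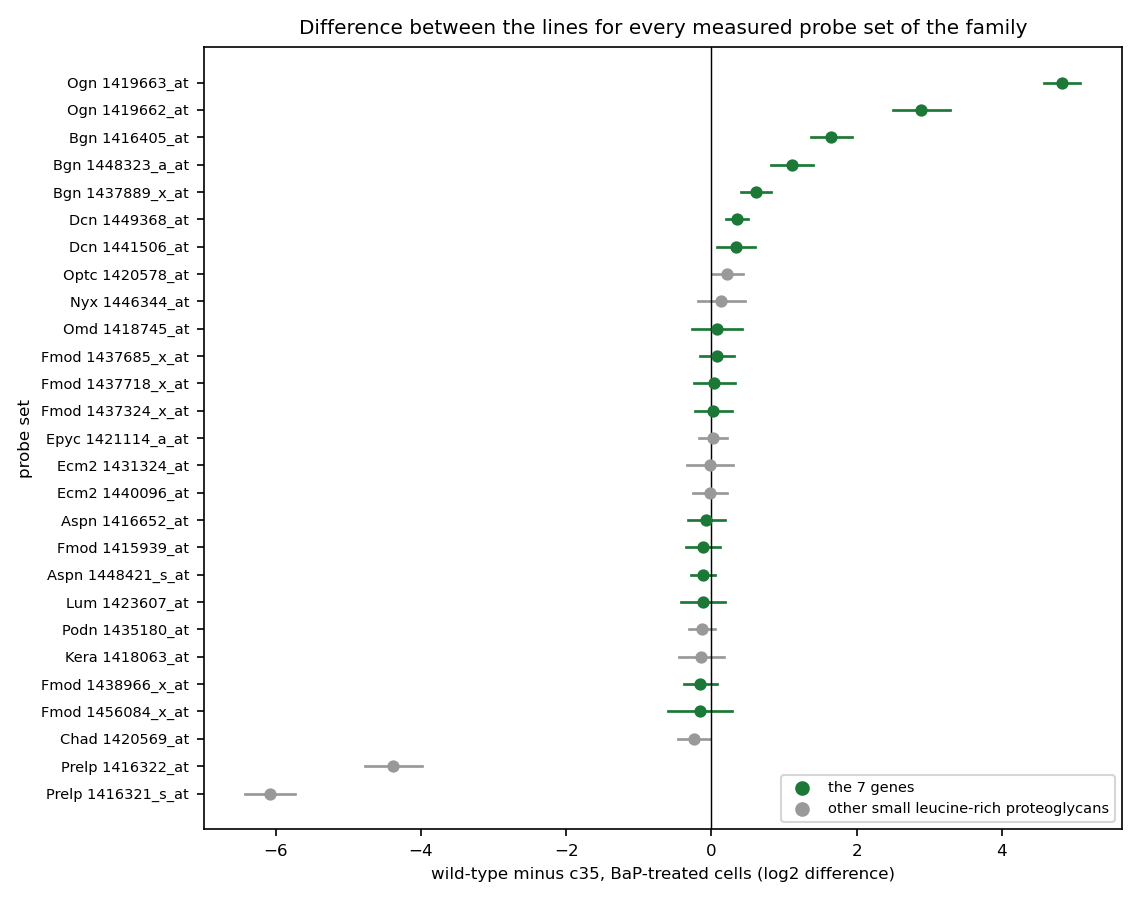
Wild-type minus c35 in BaP-treated cells (log2 difference with its 95% interval from limma) for every measured probe set of the family, ordered by size. Ogn at 4.83 and 2.89 and Bgn at 1.65, 1.11 and 0.61 lay to the right, Prelp at -4.38 and -6.07 to the left, and the others between -0.23 and 0.35.

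The counts for the enzymes that build the sugar chains, and for the matrix genes that follow, are to be read against all genes, of which 0.489% were called with TCDD, 1.76% with BaP and 1.72% for the BaP response between the lines. Of 32 measured genes for the linker and chains, 0 were called with TCDD and 1 with BaP, Slc35d1, a transporter of nucleotide sugars into the endoplasmic reticulum, which rose by 0.72 (SE 0.11, adjusted p = 0.000297). The BaP response differed between the lines for Slc35d1 (0.95), for Dse (0.88), the epimerase that turns chondroitin into dermatan sulfate, and for Chpf2 (0.59), a chondroitin chain polymerase. In naive cells, where 21.3% of all genes were called, 3 of the 32 were higher in wild-type, led by Papss2, which makes the sulfate donor, by 1.68, with Dse next by 1.55, and 3 were lower, among them B3galt6 by 0.98.

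Of 26 other proteoglycans, 0 were called with TCDD and 1 with BaP: Prg4, the joint lubricant lubricin, rose by 0.64 (SE 0.09, adjusted p = 0.000186). Of 20 fibrillar collagens and fibril partners, 0 were called with either ligand by limma. Among the 12 growth factors and receptors that the family binds, 0 were called with TCDD. With BaP, Met, the hepatocyte growth factor receptor, rose by 0.70 (SE 0.09, adjusted p = 4.4e-05) and Tgfb3, a transforming growth factor beta, fell by 0.65 (SE 0.11, adjusted p = 0.000883). The response of Met differed between the lines by 0.70 for TCDD and 0.88 for BaP, both called, against 0.335% and 1.72% of all genes. The medians with TCDD were -0.06 for the chain enzymes, -0.04 for the other proteoglycans, -0.09 for the collagens and -0.03 for the growth factors, beside 0.01 over all genes.

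Between the lines in naive cells, against the same 21.3% of all genes, 5 of the 20 collagen genes and partners were higher in wild-type, led by Col12a1 by 2.71, and 3 were lower, among them Col3a1 by 1.29, the fibrillar collagen of type III. Of the 12 growth factors and receptors 1 was higher and 5 were lower, with Bmp4 lower by 1.67. Of the fibroblast and stellate markers 3 of 14 were higher and 2 lower, with Acta2, the smooth muscle actin, lower by 2.15. The summed level of those 14 markers (log2 of their added signals, which are on no common scale between probe sets, so that the brightest weigh most) was 12.65 to 12.91 on wild-type arrays and 13.36 to 13.56 on c35 arrays. Without Col3a1, the brightest, it was 11.57 to 11.92 and 11.48 to 11.67, and the lines overlapped.

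Some markers of other cell types were also called between the lines in naive cells, where 21.3% of all genes were called. Alb, the main serum protein of hepatocytes, was 2.46 higher in naive wild-type cells, Fgb was lower, and the other 5 of 7 measured hepatocyte markers were not called. The summed level of these markers was 13.96 to 14.18 on wild-type and 12.63 to 12.79 on c35 arrays, and without Alb the lines overlapped. Of 6 macrophage and leukocyte markers, Cd68, Csf1r and Cd14 were lower in wild-type by 1.39, 1.25 and 0.73 (log2). Their summed level was 11.31 to 11.57 on wild-type and 12.47 to 12.61 on c35 arrays, and the lines stayed apart without Csf1r. Of 5 endothelial markers 0 were called, with sums of 6.82 to 7.15 and 6.86 to 7.09. The part of these markers in the line differences of Ogn, Dcn and Bgn was not tested. None of the marker lists had a member called for a ligand. RNA per cell and numbers of cells of a type cannot be told apart in bulk RNA.

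By Pearson's r over the 18 arrays, the 5 genes most like Ogn were Csnk1g1 (0.987), a casein kinase, Ramp3 (0.983), which escorts calcitonin-family receptors, Rhoq (0.981), a small GTPase, Dipk1a (0.979) and Abca6 (0.979), a lipid transporter. Over the 9 wild-type arrays alone the r of these genes was 0.89 to 0.96. Ramp3, for example, averaged 7.57 in naive wild-type cells, 8.62 after TCDD and 8.93 after BaP, and 5.75 to 6.28 over the c35 arrays. The genes most like Bgn were Retreg3 (0.988), Atp9a (0.987) and Bag6 (0.986), and those most like Dcn, on its bright probe set, were 2610005L07Rik (0.981), Acly (0.979) and Sec24b (0.978). These values share the line difference across arrays and were picked from all genes, so they are a description. The 7 genes themselves were not candidates.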

How the data were processed

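The authors deposited log2 signals of whole-genome Affymetrix mouse arrays, made by RMA per the submitters' processing notes (version not given in the sources used here), and the values were used as deposited. RMA removes background, brings the arrays to a common distribution and joins the probes of each set into 1 value, which compresses differences of dim and very bright probe sets. Of 45101 probe sets, 64 controls were left out. Gene symbols came from the platform annotation (34945 probe sets with 1 symbol, 932 with several, 9160 with none), and 34741 were matched to current names by gene number, with 0 symbols changed.

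In R 4.3.3, limma 3.58.1 fitted a mean per group over all 18 arrays, with eBayes (intensity trend) and Benjamini-Hochberg adjustment over 45037 probe sets within each of 10 comparisons. A call needed an adjusted p under 0.05 and more than 1.5-fold change. For ligands in c35 cells it needed only an adjusted p under 0.1. A gene was called when its probe sets were called in 1 direction only. The named genes were the 7 members, up to 4 called genes per other list and comparison, the genes of marker and background checks and the best correlated genes. The members and lists were chosen with earlier results of these data known. The main fit did not pair arrays by replicate number. The fit was tested on simulated data. Array number limits the precision. Figures used matplotlib 3.10.9.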

Additional observations from a re-analysis of the deposited data

Results flagged for a closer look

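The BaP response of Dcn on 1441506_at differed between the lines by -0.94 (log2, wild-type minus c35, adjusted p = 0.00664 by limma's interaction term). The signal fell by 1.01 in wild-type cells on 3 of 3 arrays and changed by -0.07 in c35 cells. The bright Dcn probe set gave -0.04 for the same difference.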

How the results depend on the processing

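Leaving out probe sets with a mean below the median removed both Ogn probe sets, and the members called were then 1 for TCDD and 1 for BaP in wild-type cells, 1 for the BaP response and 0 for the TCDD response between lines, and 1 for the lines in BaP. With 1 value per gene, the mean of its probe sets, Dcn was no longer called in the ligand comparisons, although it was between the naive lines (0.83, adjusted p = 1.54e-07). That left Ogn as the 1 member each for TCDD, BaP and the BaP response. With only the arrays compared 1 member was called with TCDD. Leaving out each array in turn gave 1 to 2 members for TCDD in wild-type cells, the 1 without wild-type DMSO replicate 1, and changed no other count of members. On 1437889_x_at of Bgn, the line difference in BaP fell below 1.5-fold with array weights, quantile normalization, median centring and without c35 BaP replicate 2. With the replicate number as a block, 2 members remained called with TCDD and 2 with BaP, the TCDD response of Ogn on 1419662_at was 1.21 as before, and no count of members changed. Deviations of same-numbered arrays from their group means correlated at r of -0.255 to 0.205. In each wild-type group replicate 1 had the highest Actb 3′ minus 5′ difference (1.38 with DMSO, 1.21 with TCDD and 1.14 with BaP). Whether the numbers mark a shared batch is therefore not settled. Over the 10 comparisons and all alternatives, 270 counts of members kept within 1.5 times the main count and 10 did not, and 0 called results reversed. The main count was 0 for TCDD against BaP and for both ligands in c35 cells. The 270 thus include counts that stayed at 0, and counts for which the array left out was not in the comparison. Apart from the setting that left out its probe sets, counts for each ligand against DMSO in wild-type cells include Ogn. The same holds for the responses between the lines. Those Ogn calls rest on arrays that chose the gene, so their persistence is no support for them. Of single probe sets 44 values changed sign, none of them called, among them Dcn on 1449368_at without wild-type DMSO replicate 1 (BaP -0.11 to 0.00, BaP response -0.04 to 0.08). The signals give no detection calls, so the dim members have a bound of background only.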
